A study of Mus musculus with 8 samples.

Results

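The 3449 cells annotated as CD8 T cells in beta cell grafts are described here, out of 22441 CD45+ cells in all. They are the cells that the authors' deposited annotation places in this type, in all 4 libraries of the series. The study followed immune cells that attack transplanted beta cells, and compared grafts of wild-type (WT) beta cells with grafts of beta cells mutated in Rnls (Rnls mut), the gene of renalase. NIT-1 cells, an insulin-producing tumor line of NOD mouse beta cells, were placed under the skin of NOD.scid mice, which lack T and B cells of their own. Splenocytes of recently diabetic NOD mice were injected into a vein afterwards, and grafts were taken at day 10 or day 17. Living CD45+ cells were sorted, the 4 grafts of a group were marked by hashtag antibodies, and each group was run as 1 droplet library that counts transcript 3' ends (10x Genomics).

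The groups were therefore WT and Rnls mut at day 10 and WT and Rnls mut at day 17, with 4 grafts each. All 4 shared the NOD.scid recipient and the transferred NOD splenocytes, so the T cells came from the injected cells and not from the recipient. The Rnls gene was mutated in the grafted beta cells only, and the T cells of both genotypes were of the same origin. WT and Rnls mut grafts grew on opposite flanks of a mouse, but the labels do not tie a hashtag to a mouse. The p-values below measure the spread between these grafts, taken as independent. Tests between days over both genotypes therefore count the WT and the Rnls mut graft of a mouse as separate replicates. Their p-values can be too small for that reason. Each library held 1 genotype at 1 day, so genotype and library cannot be told apart within a day, and the day and the library cannot be told apart within a genotype.

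CD8 T cells recognise peptides on MHC class I through their T cell receptor, with the CD8 alpha and beta chains as coreceptor, and kill the presenting cell with perforin and granzymes or signal to it with interferon gamma. In the autoimmune diabetes of NOD mice they are the lymphocytes that attack beta cells directly. Under lasting antigen they can take on a state with the factor TOX and inhibitory receptors, in which cells with the factor TCF-1 (encoded by Tcf7) renew the pool.

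The day 10 groups held 1562 (WT) and 1311 (Rnls mut) CD8 T cells and the day 17 groups 167 and 409. Per graft there were 18 to 443 cells and 90328 to 1203374 unique molecular identifiers (UMIs, each a counted transcript molecule). The median was 2555 UMIs per CD8 T cell. By graft the median was 3781 to 5276 UMIs at WT day 17 and 1855 to 2293 at Rnls mut day 17, so the libraries of day 17 differed in depth without overlap. No cell lay under 1002 UMIs, and mitochondrial UMIs took between 0.851% and 1.19% of the UMIs of a graft. Among all CD45+ cells 42 cell barcodes occurred in more than 1 library, and 1 did so among CD8 T cells. WT day 17 graft 3 stood apart, with 18 CD8 T cells and levels given below. How doublets were treated is not given in the sources used here.

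The annotation was checked against Cd3e (a chain of the T cell receptor complex), Cd8a and Cd8b1 (the CD8 alpha and beta chains). Cd8a lies on chromosome 6 from 71373427 to 71379173 and Cd8b1 beside it from 71322788 to 71337494 (GRCm38, plus strand). Cd8b1 UMIs were found in 65.6% of the annotated cells, against 3.92% of CD4 T cells and 0.330% of NK cells, at median depths of 2555, 2824 and 2411 UMIs per cell. With every cell thinned to 1000 UMIs these shares were 38.8%, 2.05% and 0.0660%. Cd8a was found in 40.3% and Cd3e in 88.5% of the annotated cells. Cd3e was found in 0.792% of NK cells. A Cd8a or Cd8b1 UMI was found in 73.8% of the annotated cells. Since the types were named from these same counts, this is a description.

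A share of the annotated cells carried the coreceptor of the other T cell lineage. Cd4 UMIs were found in 178 of the 3449 cells (5.16%), against 49.3% of CD4 T cells and 0.0660% of NK cells. Only 6 of the 178 also had a Cd8a or Cd8b1 UMI. The share with a Cd4 UMI was 3.27% at WT day 10, 2.29% at Rnls mut day 10, 21.0% at WT day 17 and 15.2% at Rnls mut day 17. The share with a Cd8a or Cd8b1 UMI went the other way, with 76.1%, 76.2%, 68.3% and 59.9% in that order. These shares were not thinned, and depth differed between the groups. By graft the median was 2357 to 2953 UMIs per cell at day 10, 3781 to 5276 at WT day 17 and 1855 to 2293 at Rnls mut day 17. Cells with a Cd4 UMI and without a Cd8 UMI were more frequent among the annotated cells of both day 17 groups at these depths. As a level, Cd4 had 3.11 to 25.4 CPM in the grafts of day 10 and 30.0 to 227 CPM in those of day 17. The level of Cd4 was highest in WT day 17 graft 3 with 227 CPM (UMIs of the gene per 1000000 UMIs of the graft's CD8 T cells) and in Rnls mut day 17 graft 3 with 178 CPM, the 2 grafts with the lowest Cd8b1 (186 and 320 CPM). For this reason the main values below are also given for the 2541 cells that had a Cd8a or Cd8b1 UMI and no Cd4 UMI. That alternative was chosen after seeing the data. It leaves 15 grafts, since WT day 17 graft 3 then has under 10 cells.

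Transcripts of other cells were counted in the CD8 T cells too. Lyz2, the lysozyme gene of macrophages, had a UMI in 33.7% of CD8 T cells, 37.3% of CD4 T cells and 37.6% of NK cells. In CD8 T cells its level was 1.50% of that in macrophages at WT day 10, 0.818% at Rnls mut day 10, 1.51% at WT day 17 and 4.13% at Rnls mut day 17. The summed level of 12 macrophage and monocyte markers ran from 246 to 286 CPM in the WT and from 115 to 141 CPM in the Rnls mut grafts of day 10. At day 17 it ran from 265 to 524 CPM in the WT and from 1038 to 1449 CPM in the Rnls mut grafts. All 12 markers were detected. The 11 dendritic cell markers ran from 220 to 262 CPM in Rnls mut grafts at day 10 and from 956 to 1218 CPM at day 17, with Clec9a at 0. In WT grafts they ran from 428 to 463 CPM and from 240 to 469 CPM, so the days overlapped there. NK cell markers ran from 78.1 to 97.5 CPM and from 195 to 255 CPM in Rnls mut grafts, and from 113 to 153 CPM and from 59.9 to 173 CPM in WT grafts. Some of these markers, among them Eomes and Klra genes, also stand in the T cell gene lists used below. Their part from other cells was not tested. The 8 beta cell markers, among them Ins1 and Ins2, were at 0 in every graft.

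**Figure D1:**
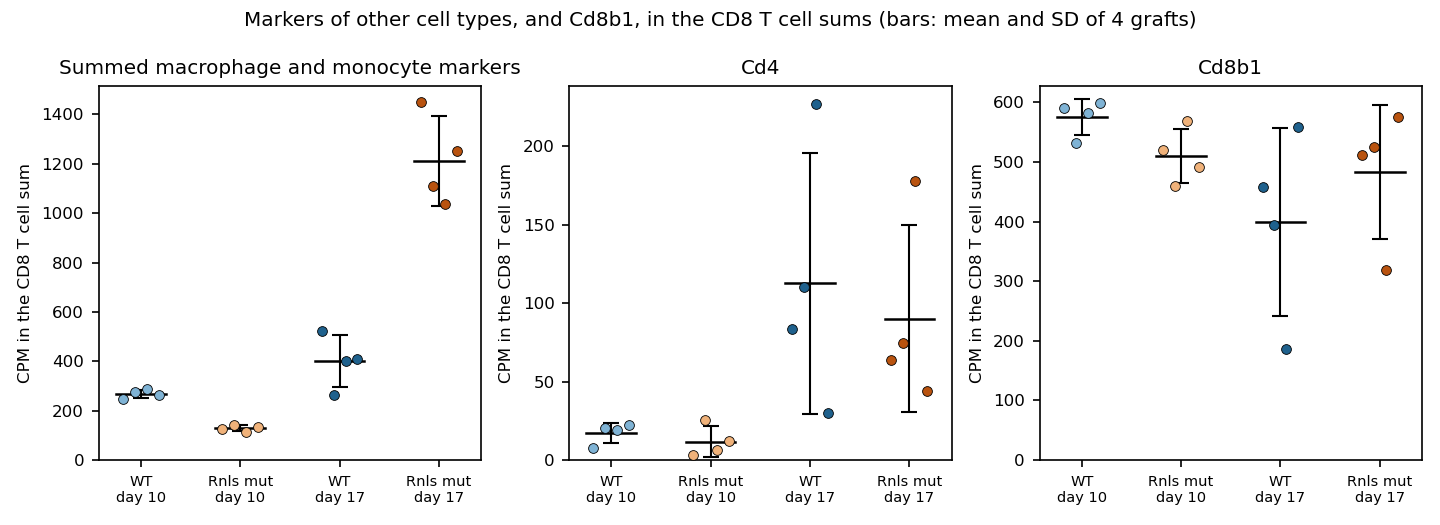
Level, in CPM of a graft's CD8 T cells, of 12 summed macrophage and monocyte markers, of Cd4 and of Cd8b1. Points are grafts, and bars give the mean and SD of 4 grafts. The summed markers of Rnls mut day 17 sit between 1038 and 1449 CPM, above every other graft, and the 2 grafts with the highest Cd4 have the lowest Cd8b1.

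The CD8 T cells fell into 5 of the authors' 29 clusters. Cluster 3 held 1780 cells (51.6%), cluster 9 held 986, cluster 16 held 387, cluster 20 held 252 and cluster 26 held 44. Cd8b1 had between 411 and 641 CPM and Cd3e between 880 and 1107 CPM in all 5, so none lacked the markers of the type. Folds below compare the pooled CPM of a cluster with that of the other CD8 T cells. The clusters were made from these counts, so their leading genes are a description.

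Cluster 3, the most numerous, was set apart by small folds. Its first gene was Tcf7 at 77.3 CPM against 39.9 CPM, followed by Tnfrsf4 (OX40, a costimulatory receptor) and Serpinb1a, and Lef1, the partner factor of TCF-1, was among its first 10. Granzyme levels were the lowest of the 4 larger clusters, with Gzma at 1155 CPM and Gzmb at 1242 CPM. Cluster 9 was led by Ccl5, a chemokine of antigen-experienced CD8 T cells, at 26972 CPM against 11005 CPM. Tox, the exhaustion factor, followed with 141 against 61.7 CPM, and Maf, a factor that promotes Il10 and inhibitory receptors in T cells, with 101 against 55.2 CPM. Igkc, an immunoglobulin gene of B cells, followed at 58.3 CPM.

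Cluster 16 was led by cytotoxic genes. Gzma (granzyme A) was at 11359 CPM against 1724 CPM in the other CD8 T cells and had a UMI in every cell of the cluster, and Gzmb (granzyme B) was at 3570 against 1440 CPM. Cx3cr1, a chemokine receptor of terminal effector cells, and the NK receptors Klra1 and Klre1 were among its first 10 genes. Tcf7 was at 6 CPM there, against 77.3 CPM in cluster 3. Cd4 was lowest in this cluster, with a UMI in 0.517% of its cells.

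Cluster 20 was marked by Ifitm1, Ifitm2 and Ifitm3, interferon-induced membrane proteins that restrict virus entry. Ifitm1 was at 6172 CPM against 122 CPM, a 50.2-fold difference on the scale of CPM + 1. Isg15, another gene that interferon induces, was at 66 CPM in this cluster and did not share its lead, being at 138 CPM in cluster 3. Cluster 26, with 44 cells, was led by Ccl4 and Ccl3, chemokines that T cells release on receptor stimulation, with Ccl4 at 11780 against 104 CPM. The early response genes Fos and Jun were at 1222 and 1085 CPM against 25.8 and 61.3 CPM, and Ifng was at 1691 CPM against 261 to 395 CPM in the other 4 clusters. Tox was also highest in cluster 26, with 635 CPM. These levels are pooled over days, and 7 WT and 14 Rnls mut cells of cluster 26 came from day 17, against 11 and 9 of the larger cluster 16. Of its 10 leading genes Slc23a3 and Olfr655 came from 1 cell each (2.27% of the cells).

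**Figure D2:**
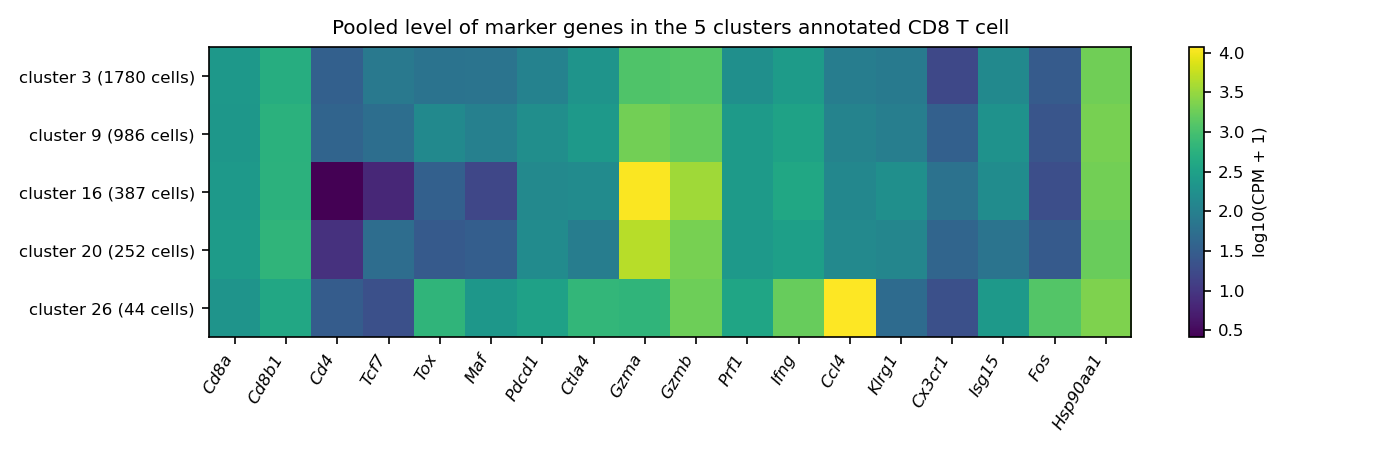
Pooled level of marker genes in the 5 clusters of CD8 T cells, as log10 of CPM + 1 (color). Gzma and Gzmb stand out in cluster 16 and Ccl4, Fos and Tox in cluster 26, while Cd8a and Cd8b1 are at nearly the same level in all 5 clusters.

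The clusters took different shares of the groups, and these are given without a test because the clusters were made from the genes compared below. Cluster 3 held 49.4% of CD8 T cells at WT day 10, 48.4% at Rnls mut day 10, 53.3% at WT day 17 and 69.4% at Rnls mut day 17. Cluster 16, the granzyme cluster, held 12.0%, 13.7%, 6.59% and 2.20% in that order. Cluster 20 held 6.34%, 10.8%, 1.80% and 2.20%, and cluster 26 held 0.640%, 0.992%, 4.19% and 3.42%. At day 17 clusters 16 and 20 rested on 3 to 11 cells per group. Most of every group was thus in clusters 3 and 9.

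CD8 T cells made up a smaller share of the CD45+ cells at day 17 than at day 10. At WT day 10 the 4 grafts held 20.5%, 22.5%, 20.4% and 18.5%, a mean of 20.5% ± 1.64 (SD, n = 4). At Rnls mut day 10 they held 18.8%, 17.0%, 23.5% and 19.4%, a mean of 19.7% ± 2.75 (SD, n = 4). The day 10 groups overlapped almost fully. At WT day 17 the grafts held 9.26%, 12.9%, 1.62% and 6.52% (mean 7.56% ± 4.74, SD, n = 4), and at Rnls mut day 17 they held 7.40%, 7.26%, 7.61% and 7.88% (mean 7.54% ± 0.268, SD, n = 4). Every day 17 graft lay below every day 10 graft. The fall over both genotypes was by 12.5 percentage points (two-sided exact permutation test within genotype, p = 0.000408, 0.00245 after Benjamini-Hochberg adjustment over 6 comparisons). That test permuted the grafts of each genotype separately, although both grafts of a mouse share a day. Its p can therefore be too small. Within WT the fall was by 12.9 points and within Rnls mut by 12.1 points, each at p = 0.0286 (exact permutation test, adjusted 0.0571), the smallest p that 4 grafts against 4 allow.

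Between genotypes the share differed by -0.806 points at day 10 (exact permutation test, p = 0.629), by -0.0239 points at day 17 (p = 1) and by -0.415 points over both days (p = 0.777), so no difference was detected beyond the spread between grafts. Of T cells alone (CD8, CD4 and regulatory), CD8 T cells were 47.9% ± 6.51 at WT day 10, 40.0% ± 9.86 at Rnls mut day 10, 25.5% ± 11.1 at WT day 17 and 29.8% ± 4.02 at Rnls mut day 17 (mean ± SD, n = 4). Graft 1 had the highest share of T cells in both day 10 groups (57.7% and 54.7%, against 33.8% to 44.8% in the other 6). That share was 16.3 points lower at day 17 (exact permutation test, p = 0.000816, adjusted 0.00490) and differed by -1.76 points between genotypes (p = 0.687).

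**Figure D3:**
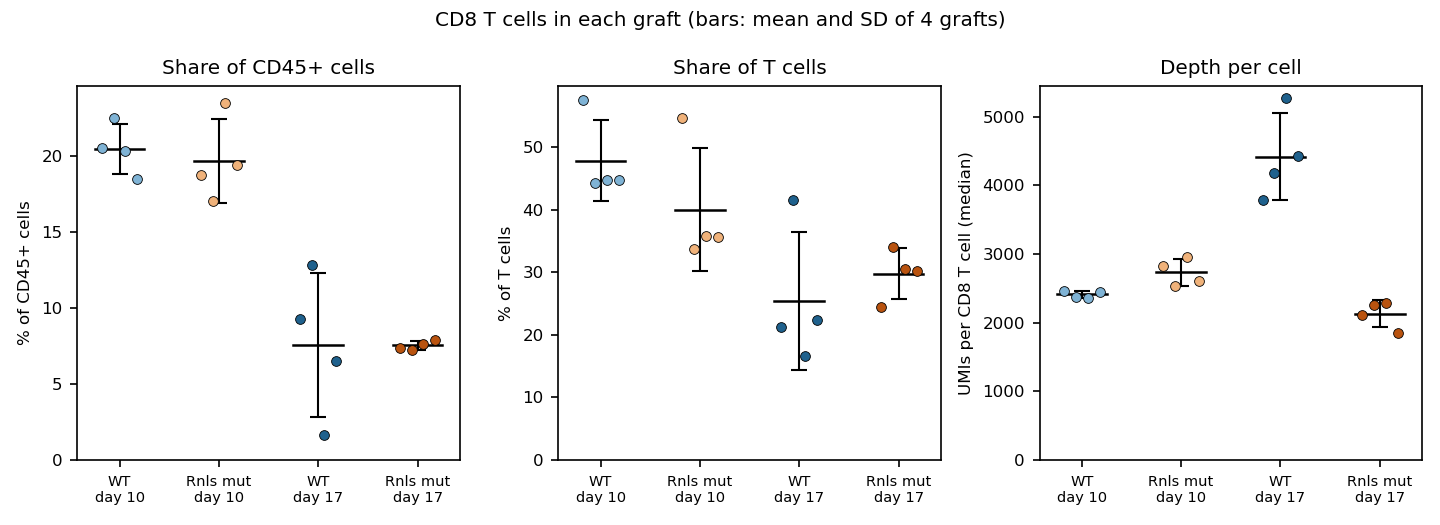
Share of CD8 T cells among CD45+ cells and among T cells, both in percent, and median UMIs per CD8 T cell, by graft. Points are grafts, and bars give the mean and SD of 4 grafts. The share of CD45+ cells is between 1.62% and 12.9% in the 8 grafts of day 17, below all 8 of day 10, and the depth of the day 17 groups does not overlap.

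Gene expression was compared on UMIs summed over the CD8 T cells of each graft, and 6379 genes passed the filter on low counts. In a graft's sum, fewer cells of one kind and less RNA per cell cannot be told apart. Between day 10 and day 17, over both genotypes, 688 genes were higher (10.8%) and 702 were lower (11.0%) by edgeR's quasi-likelihood test at a Benjamini-Hochberg adjusted p under 0.05, together 21.8% of the genes tested. The median log2 fold change of all genes tested was 0.01. Of the lower genes 40 encoded ribosomal proteins. Of the 688 higher genes, 47 (6.83%) had a pooled level at least 10 times as high in macrophages, monocytes, dendritic cells, granulocytes or B cells as in CD8 T cells, against 2.59% of all genes tested. Within WT 764 genes were called (12.0%) and within Rnls mut 657 (10.3%). Leaving out WT day 17 graft 1 lowered the WT count to 505, and leaving out Rnls mut day 17 graft 1 or 2 lowered the Rnls mut count to 396 or 427. The cells with a Cd8a or Cd8b1 UMI and no Cd4 UMI gave 434 higher and 538 lower genes, and 838 of the 1390 were called in them too. In the 1560 cells of 12 grafts with few or no UMIs of other cell types, 319 genes were called, and of the 1390 genes 1337 were tested there, 1191 kept their sign and 241 (17.3%) were called again.

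**Figure D4:**
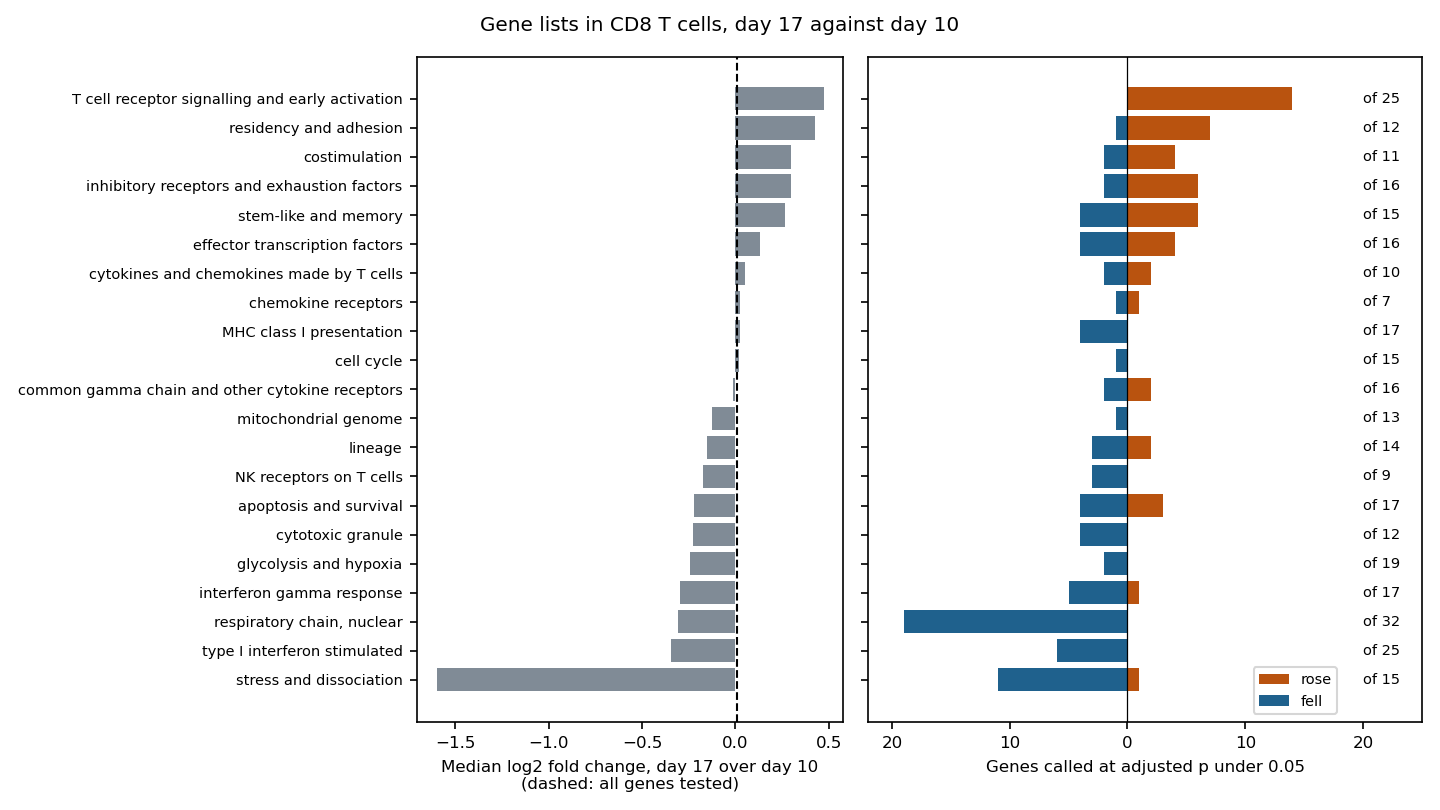
For 21 gene lists, the median log2 fold change of the tested members between day 17 and day 10 over both genotypes (left; the dashed line is the median of all genes tested, 0.01) and the number of members called higher or lower (right, with the number tested). Stress genes have the lowest median (-1.60) with 11 of 15 lower, and the receptor signalling and early activation list the highest (0.47) with 14 of 25 higher.

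The genes of the heat shock response fell most. Of 15 tested members of the stress and dissociation list, 11 were lower at day 17 and 1, Txnip, was higher (background 11.0% lower), and the median log2 fold change was -1.60. Hsp90aa1, the inducible HSP90 chaperone on chromosome 12 (110690605 to 110702728), had 1545 to 2897 CPM at day 10 (median 2271) and 270 to 454 CPM at day 17 (median 353). No graft of one day reached the other day. The log2 fold change was -2.81 (SE 0.14), adjusted p = 3.15e-11 by edgeR. Hsph1, which encodes the chaperone HSP105, had 409 to 975 CPM at day 10 (median 648) and 18.6 to 122 CPM at day 17 (median 33.2), a log2 fold change of -4.24 (SE 0.31, edgeR adjusted p = 4.81e-07). The mitochondrial chaperone pair Hspd1 and Hspe1 changed by -2.81 (SE 0.19) and -2.17 (SE 0.19), and Dnaja1, an HSP40 cochaperone, by -1.88 (SE 0.14).

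Hspa1a, which encodes the inducible HSP70, had 116 to 848 CPM at day 10 and 0 to 44.3 CPM at day 17, with 2 WT grafts of day 17 at 0. Its log2 fold change was -5.19 (SE 0.68, edgeR adjusted p = 0.000135), and it shares near-identical sequence with Hspa1b (-3.29, SE 0.62), so the split of reads between the pair is uncertain. The constitutive chaperones fell less: Hsp90ab1 from a median of 3217 to 1144 CPM (log2 fold change -1.60, SE 0.08) and Hspa8 from 2890 to 1171 CPM (-1.41, SE 0.08). Hspa5, the chaperone of the endoplasmic reticulum, fell by 0.97 on the log2 scale. In the cells with a Cd8 UMI and no Cd4 UMI the changes were -2.82 for Hsp90aa1, -4.21 for Hsph1 and -5.41 for Hspa1a. No difference from the change in other lymphocytes was detected for Hsp90aa1: the day change of Hsp90aa1 in CD8 T cells minus that in CD4 T cells of the same grafts was -0.01 (edgeR adjusted p = 0.977), and minus that in NK cells it was 0.37 (adjusted p = 0.172).

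Heat shock genes share a promoter element, the heat shock element, which the factor HSF1 binds. It was sought in the promoters of RefSeq (GRCm38.p6, 250 bases before to 50 bases after the start) as GAANNTTCNNGAA and in the shorter form GAANNTTC, on both strands, where the longer form holds the shorter. A promoter was found for 13 of the 16 list genes. The longer form was in 3 of these 13 (Hspd1, Hspe1 and Hsph1) and in 0.603% of 32851 promoters. The shorter form was in 6 of the 13 (also Dnaja1, Hspa1a and Hspa1b) and in 7.86% of all promoters. The 3 windows below belong to genes that fell at day 17, each on the strand of its gene, with the matched bases in capitals. They lie at chr1:55088009-55088128 for Hspd1 (minus strand, 144 bases before the start), chr17:34972203-34972322 for Hspa1a (minus strand, 104 bases before the start) and chr5:149636279-149636308 for Hsph1 (minus strand, 15 bases after the start).
Hspd1: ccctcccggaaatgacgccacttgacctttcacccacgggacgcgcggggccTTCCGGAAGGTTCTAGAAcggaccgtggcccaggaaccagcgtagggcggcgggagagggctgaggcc
Hspa1a: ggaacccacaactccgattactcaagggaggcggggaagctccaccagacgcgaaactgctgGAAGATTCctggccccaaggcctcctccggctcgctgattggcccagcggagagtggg
Hsph1: gctgcagaTTCTGGAAAGTTCtcctcagta
The element of Hspd1 is also that of Hspe1, which starts on the opposite strand 89 bases from it. Hspa1b holds the same 120 bases as Hspa1a. A match of letters describes the promoter and shows no binding in these cells.

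The granzyme genes Gzma and Gzmb fell as well. Of 12 tested members of the cytotoxic granule list 4 were lower and 0 higher (background 11.0% lower), with a median of -0.23. The 4 were Gzma, Gzmb, Serpinb9 and Serpinb6b, and no other granzyme gene was called. Gzma (chromosome 13, 113093825 to 113100981) had 2670 to 4229 CPM at day 10 (median 3371) and 392 to 2397 CPM at day 17 (median 891), and the days did not overlap. Its log2 fold change was -1.80 (SE 0.30, edgeR adjusted p = 0.000775). Gzmb (chromosome 14, 56258838 to 56262260) had 1589 to 2507 CPM at day 10. At day 17 it had 455, 405, 2169 and 1508 CPM in the WT grafts and 564, 544, 458 and 542 CPM in the Rnls mut grafts. WT grafts 3 and 4, with 18 and 23 CD8 T cells, were thus near the day 10 level, and the other 6 grafts of day 17 far below it. The log2 fold change of Gzmb over both genotypes was -1.50 (SE 0.29, edgeR adjusted p = 0.00233).

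Serpinb9 and Serpinb6b, inhibitors that protect a killer cell from its own granzymes, fell by 0.72 and 0.90 on the log2 scale. Prf1, the pore-forming perforin, had a median of 229 CPM at day 10 and 180 CPM at day 17 (log2 fold change -0.34, SE 0.24, edgeR adjusted p = 0.346), and Ifng 301 and 318 CPM (-0.20, SE 0.28, adjusted p = 0.688), both without a call. In the cells with a Cd8 UMI and no Cd4 UMI, Gzma and Gzmb changed by -1.47 and -1.57 and kept their calls. Cluster 16, which had the highest Gzma level, and cluster 20 held smaller shares of the cells at day 17. The day change in CD8 T cells minus that in the same grafts' NK cells was -1.77 for Gzmb (edgeR adjusted p = 0.0207) and -1.79 for Gzma (adjusted p = 0.0326). Minus that in CD4 T cells it was 0.29 (edgeR adjusted p = 0.777) and 0.41 (adjusted p = 0.645), where no difference was detected.

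Genes of receptor signalling and early activation rose. Of 25 tested members of that list 14 were higher and 0 lower (background 10.8% higher), with a median of 0.47. Zfp36l1, an RNA-binding protein that destabilises cytokine transcripts, had 49.7 to 76.5 CPM at day 10 (median 62.4) and 110 to 232 CPM at day 17 (median 187). Every graft of day 17 was above every graft of day 10, and the log2 fold change was 1.42 (SE 0.14, edgeR adjusted p = 5.37e-10). Zfp36, of the same family, rose by 1.72 (SE 0.24). Cd69, an early activation antigen that also holds T cells in tissue, had 98.4 to 170 CPM at day 10 and 210 to 599 CPM at day 17 (1.19, SE 0.18, edgeR adjusted p = 0.000208).

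The AP-1 and early growth response genes Fos (1.54), Fosb (1.46), Egr1 (1.23) and Junb (1.01) rose on the same log2 scale, as did the signalling genes Zap70 (0.55) and Fyn (0.50), which act at the T cell receptor, and the feedback genes Dusp1 (1.38) and Tnfaip3 (1.01). Fos was at 955 CPM in macrophages against 20.0 to 213 CPM in the CD8 sums of day 17, and its part from other cells was not tested. In the cells with a Cd8 UMI and no Cd4 UMI 13 of 25 members were higher and 0 lower, Cd69 among them with 1.18 (edgeR adjusted p = 0.00411). The day change minus that in CD4 T cells was -0.08 for Zfp36l1 (edgeR adjusted p = 0.891) and -0.15 for Cd69 (adjusted p = 0.833), so no difference was detected. Minus that in NK cells it was 0.90 for Zfp36l1 (edgeR adjusted p = 0.00772). Without WT day 17 graft 1 Fos was at 1.37 and not called.

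The inhibitory receptors and exhaustion factors split. Of 16 tested members 6 were higher and 2 lower (background 10.8% higher and 11.0% lower), with a median of 0.30. Tox (chromosome 4, 6686353 to 6991557) had 72.0, 36.1, 35.1 and 38.9 CPM in the WT and 88.0, 31.1, 26.6 and 40.7 CPM in the Rnls mut grafts of day 10. At day 17 it had 424, 145, 310 and 170 CPM in the WT and 168, 167, 379 and 88.6 CPM in the Rnls mut grafts. The lowest graft of day 17 was just above the highest of day 10, and the log2 fold change was 2.30 (SE 0.35, edgeR adjusted p = 0.000454). The cells with a Cd8 UMI and no Cd4 UMI gave 1.55 (edgeR adjusted p = 0.0459). Nr4a1, Nr4a2 and Nr4a3, receptor-induced nuclear factors that act upstream of TOX, rose by 1.17, 1.02 and 0.98.

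Havcr2, which encodes the inhibitory receptor TIM-3, went the opposite way, from 455 to 608 CPM at day 10 (median 509) to 65.0 to 310 CPM at day 17 (median 114). Its log2 fold change was -2.0 (SE 0.21, edgeR adjusted p = 6.48e-06), the days did not overlap, and the cells with a Cd8 UMI and no Cd4 UMI gave -2.17. Ctla4, an inhibitory receptor that CD4 and regulatory T cells also carry, was higher by 1.15 (SE 0.28, edgeR adjusted p = 0.0110), but by 0.60 (adjusted p = 0.364) in the cells with a Cd8 UMI and no Cd4 UMI. Pdcd1, the PD-1 gene, had a median of 126 CPM at day 10 and 107 CPM at day 17 and was not called (-0.20, SE 0.37, edgeR adjusted p = 0.767). Without WT day 17 graft 1 Ctla4 was at 0.94 and not called. Tox and Havcr2 thus moved in opposite directions while Pdcd1 gave no call.

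**Figure D5:**
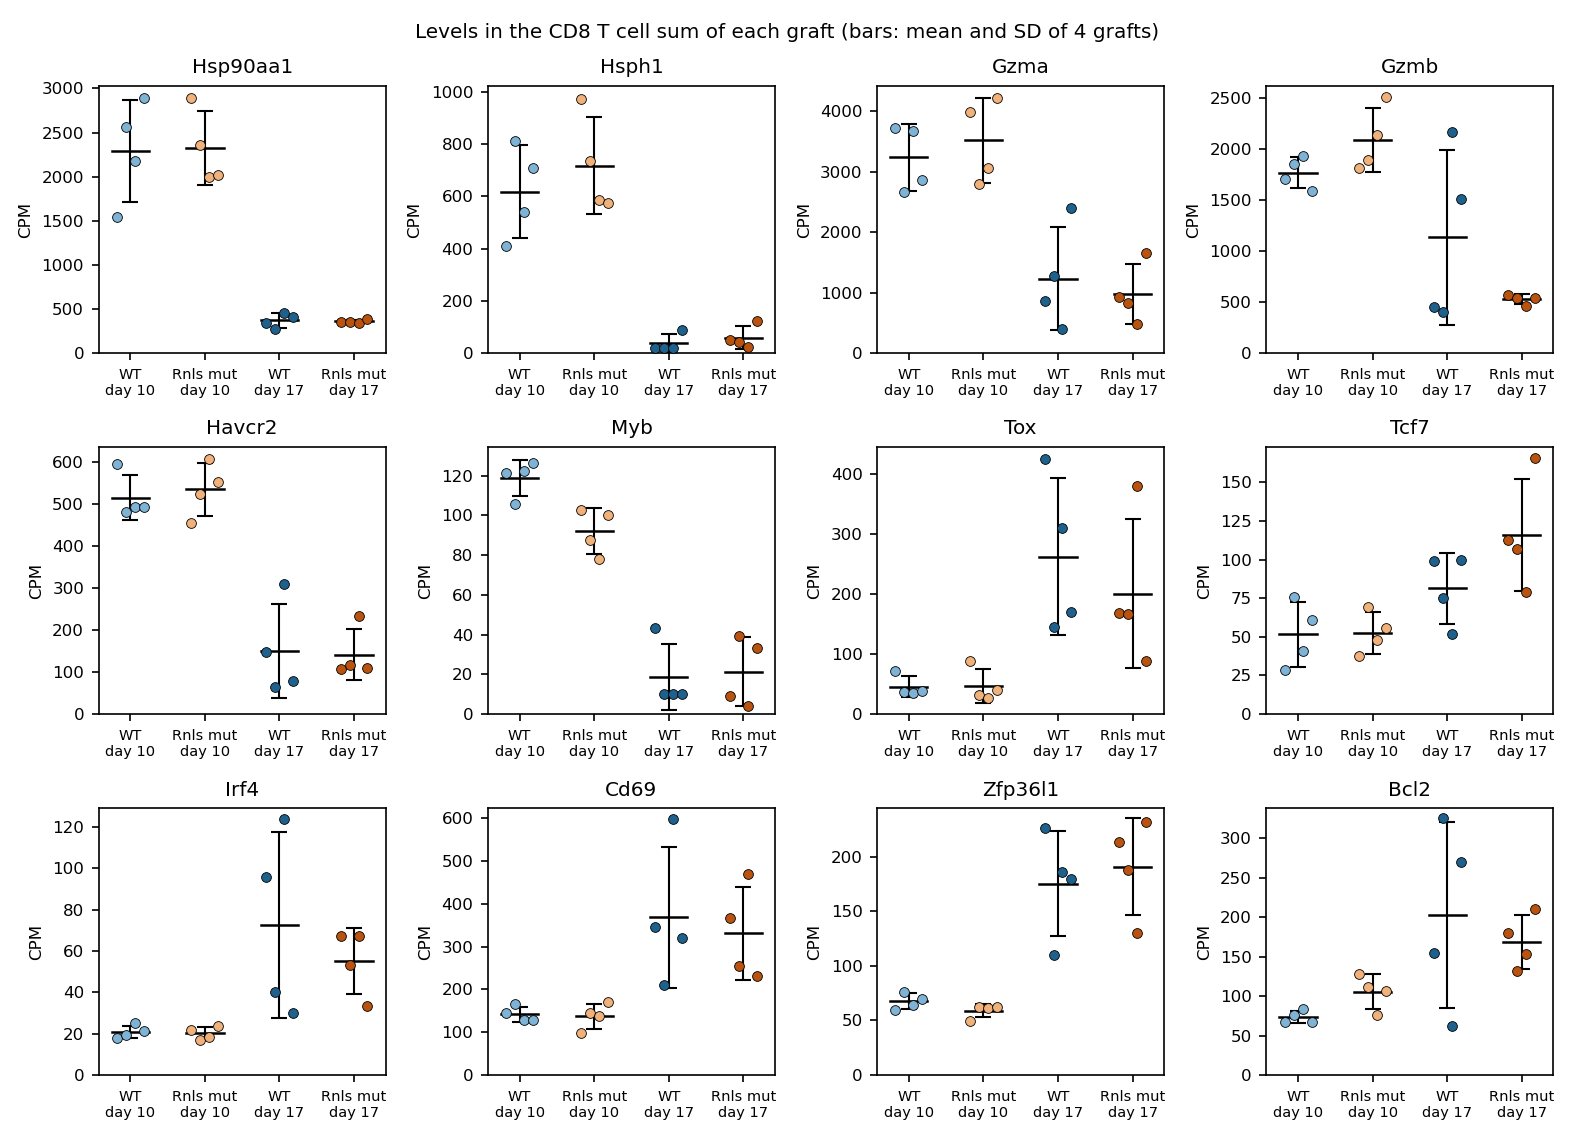
Level of 12 genes in the CD8 T cell sum of each graft, in CPM. Points are grafts, and bars give the mean and SD of 4 grafts. For Hsp90aa1, Hsph1, Gzma, Havcr2 and Myb all grafts of day 17 lie below all of day 10, for Tox, Irf4, Cd69 and Zfp36l1 all lie above, and for Gzmb, Tcf7 and Bcl2 the days overlap.

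Stem-like and memory genes also split, with 6 of 15 tested members higher and 4 lower (background 10.8% higher and 11.0% lower) and a median of 0.26. Tcf7 (chromosome 11, 52252371 to 52283014) had 28.4 to 75.6 CPM at day 10 (median 51.9) and 51.6 to 166 CPM at day 17 (median 99.5). The days overlapped, with a log2 fold change of 0.78 (SE 0.21, edgeR adjusted p = 0.00940), and 0.94 (adjusted p = 0.0105) in the cells with a Cd8 UMI and no Cd4 UMI. Lef1 rose by 0.78 (SE 0.13), Klf2, a factor of resting and recirculating T cells, by 0.95 (SE 0.16), and Bcl2, a survival protein, by 0.95 (SE 0.19). Myb, a factor of stem-like T cells, went down from 78.1 to 127 CPM (median 104) to 3.95 to 43.4 CPM (median 10.2), a log2 fold change of -2.37 (SE 0.23, edgeR adjusted p = 2.20e-09). Without WT day 17 graft 1 Tcf7 was at 0.67 and not called. S1pr1, the receptor for exit into lymph, fell by 0.85. The members of the list therefore did not move as a unit.

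Among 16 effector transcription factors 4 were higher and 4 lower (background 10.8% higher and 11.0% lower). Irf4, a factor induced in proportion to receptor signalling, had 17.0 to 25.1 CPM at day 10 and 30.0 to 124 CPM at day 17 without overlap (log2 fold change 1.57, SE 0.21, edgeR adjusted p = 6.35e-07), and 1.44 in the cells with a Cd8 UMI and no Cd4 UMI, but -2.23 (adjusted p = 0.642) without the cells with markers of other types. Maf (chromosome 8, 115682942 to 115707794) rose most of the list, from 20.8 to 60.2 CPM to 107 to 444 CPM (2.45, SE 0.32, edgeR adjusted p = 0.000137). The grafts with the highest Maf, WT graft 3 with 444 CPM and Rnls mut graft 3 with 359 CPM, were those with the highest Cd4. In the cells with a Cd8 UMI and no Cd4 UMI Maf was at 1.05 (edgeR adjusted p = 0.0746) and lost its call.

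The day change of Maf in CD8 T cells differed from that in both other lymphocytes, in a comparison that kept the cells with a Cd4 UMI. It exceeded that in CD4 T cells by 2.27 (SE 0.33, edgeR adjusted p = 0.00234) and that in NK cells by 3.04 (SE 0.40, adjusted p = 2.90e-05). Among the factors that fell were Irf8 (-1.51), Runx3 (-0.61) and Id2 (-0.48), of which Runx3 and Id2 are factors of the cytotoxic lineage. The fall of Irf8 was larger than in NK cells by 1.34 (edgeR adjusted p = 7.96e-05).

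Of 12 residency and adhesion genes 7 were higher and 1 lower (background 10.8% higher and 11.0% lower), with a median of 0.43. In the cells with a Cd8 UMI and no Cd4 UMI 5 of 12 were higher and 1 lower, and in cells thinned to 1000 UMIs 2 and 1. Without the cells with markers of other types 0 were higher and 1 lower, with a median of -0.16. Besides Cd69 the higher genes of the main fit were Rgs2 (0.94, SE 0.17), Itga1, the CD49a integrin of tissue-resident T cells (0.84, SE 0.24), and Rgs1, a brake on chemokine receptor signalling (0.66, SE 0.22, edgeR adjusted p = 0.0493). Itgal, Itgb2 and Selplg, genes of adhesion molecules, were called higher as well. Cxcr6, a chemokine receptor of resident T cells, fell by 0.59 (SE 0.09) and Cxcr4, the receptor for CXCL12, rose by 1.15 (SE 0.29), the only 2 calls among 7 chemokine receptors. Of these, Itga1 was at 0.61 without WT day 17 graft 2 and Cxcr4 at 0.92 without WT day 17 graft 1, both without a call, and Rgs1 lost its call in 12 of the 16 fits that left out 1 graft.

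Among 10 cytokine genes Ccl3 and Ccl4 were higher and Xcl1 and Ltb lower (background 10.8% higher and 11.0% lower). Ccl4 (chromosome 11, 83662584 to 83664683) had 87.3 to 273 CPM at day 10. At day 17 it had 548, 145, 1539 and 1109 CPM in the WT and 680, 267, 572 and 221 CPM in the Rnls mut grafts, so that the spread within day 17 was wider than within day 10. The log2 fold change was 1.75 (SE 0.41, edgeR adjusted p = 0.00879), and it exceeded that in CD4 T cells by 3.05 (adjusted p = 0.0246). Minus that in NK cells it was -0.15 (SE 0.51, edgeR adjusted p = 0.949) in grafts with at least 20 cells of each type. No difference was detected there. Xcl1 lost its call in 8 of the 13 fits without 1 graft in which it was tested. Without WT day 17 graft 1 Ccl3 was at 1.39 and not called, and Ltb was not called without WT day 17 graft 3 (-0.48) or Rnls mut day 17 graft 4 (-0.46). Cluster 26, which held the most Ccl4, had 7 and 14 cells at day 17.

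Among interferon-stimulated genes more were called lower than higher at day 17 in the sums of all CD8 T cells. Of 25 tested genes of the type I list 6 were lower and 0 higher (background 11.0% lower; median -0.35), with Isg15, a ubiquitin-like modifier, at -1.0 (SE 0.27, edgeR adjusted p = 0.0170). Without WT day 17 graft 1 Isg15 was at -0.84 and not called. Of 17 genes of the interferon gamma response 5 were lower and 1, Socs3, higher (median -0.30). Gbp3, a guanylate-binding protein, had 126 to 189 CPM at day 10 and 30.0 to 122 CPM at day 17 without overlap (-0.97, SE 0.15, edgeR adjusted p = 4.83e-06). In cluster 3 alone 2 of 23 type I genes were lower and 0 higher, where 391 of all 4991 genes were lower. Of 16 interferon gamma genes 1 was lower and 1 higher there. In cells thinned to 1000 UMIs the counts were 2 lower of 14, and 4 lower and 2 higher of 13. In the cells with a Cd8 UMI and no Cd4 UMI they were 4 lower of 25 and 6 lower of 17, with 0 higher. Of 17 genes of MHC class I presentation 4 were lower in the main fit, by 0.26 (B2m) to 0.52 (Psme2).

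Nuclear genes of the respiratory chain fell by small amounts. Of 32 tested 19 were lower and 0 higher (background 11.0% lower), with a median of -0.31, and Cycs, which encodes cytochrome c, fell most (-0.76, SE 0.12, edgeR adjusted p = 7.29e-06). Atp5h, a subunit of the ATP synthase, had 788 to 865 CPM at day 10 and 475 to 764 CPM at day 17 (-0.45, SE 0.07). In the cells with a Cd8 UMI and no Cd4 UMI 14 of 32 were lower. Of the 13 genes on the mitochondrial genome 1, mt-Atp8, was called lower (-0.70).

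The count for glycolysis changed when 1 graft was left out. Of 19 tested glycolysis and hypoxia genes 2 were lower, Hk2 (hexokinase 2; -1.24, SE 0.19) and Ero1l (-0.51, SE 0.16), and 0 higher, near the background of 11.0% lower, with a median of -0.24. Ero1l was not called without WT day 17 graft 1 (-0.39) or Rnls mut day 17 graft 2 (-0.43). In WT day 17 graft 3 Gapdh was at 3222 CPM and Pkm at 1043 CPM, against 530 to 1066 CPM and 164 to 387 CPM in the other 7 grafts of day 17. Without that graft, in the fit of grafts with at least 20 cells, 10 of 21 tested genes were lower and 0 higher, with a median of -0.58, where 746 of all 7384 genes were lower. The cells with a Cd8 UMI and no Cd4 UMI, where the graft is also absent, gave 13 of 20 lower and 0 higher and a median of -0.65, where 538 of all 6540 genes were lower.

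For the other lists the background was again 10.8% of all genes tested higher and 11.0% lower. Lineage genes (14 tested) had 2 higher, Cd247 (0.38) and Trac (0.28), and 3 lower, Runx3, Cd8b1 (-0.41, SE 0.12, edgeR adjusted p = 0.0189) and Trbc2. In the cells with a Cd8 UMI and no Cd4 UMI, a choice that uses Cd8b1 itself, Cd8b1 was at -0.17 (edgeR adjusted p = 0.178), Cd247 at 0.20 (adjusted p = 0.267) and Trac at 0.15 (adjusted p = 0.392). Cd3e (-0.03, adjusted p = 0.806) and Cd8a (-0.27, adjusted p = 0.0987) were not called by edgeR. Trac was not called without WT day 17 graft 4 (0.20) or Rnls mut day 17 graft 3 (0.24), while Cd8a was called without WT day 10 graft 2 (-0.33) or Rnls mut day 17 graft 2 (-0.37). Of 11 costimulation genes 4 were higher, among them Cd28 (0.44, SE 0.08) and Cd40lg (1.36, SE 0.42), the ligand through which CD4 T cells help, and 2 lower. Of 9 NK receptors tested 3 were lower (Klrg1 -0.57, Klre1 -0.40 and Klrk1 -0.39), and 0 were called in the cells with a Cd8 UMI and no Cd4 UMI, where Klrg1 was at -0.53 (edgeR adjusted p = 0.0525). Cd40lg was between 0.86 and 1.59 in the 16 fits without 1 graft and lost its call in 4 of them, and Klre1 in 5.

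Of 16 cytokine receptor genes 2 were higher (Il4ra 0.49 and Tgfbr2 0.42, a receptor of TGF beta) and 2 lower (Il18r1 -0.39 and Il2rg -0.28). That is near the background of 10.8% higher and 11.0% lower. Il4ra lost its call in 4 of the 16 fits without 1 graft. Of 17 apoptosis and survival genes 3 were higher, Bcl2, Birc2 (1.04, SE 0.14) and Birc3, and 4 lower, with Fas, the death receptor, at -1.01 (SE 0.23). Of 15 cell cycle genes tested 1, Hmgb2, was lower (-0.24), a call lost in 7 of the 16 fits without 1 graft, and 25 of the 40 on the list had too few counts to be tested. Tgfb1 itself changed by 0.25 (SE 0.11, edgeR adjusted p = 0.115).

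Most rises and most falls were not called in the smaller set of cells with few or no transcripts of other types. Of the day 17 cells, 35 WT and 21 Rnls mut cells of 2 grafts each had no Cd4 UMI and at most 1 UMI of the macrophage, monocyte, dendritic cell, granulocyte and B cell markers, against 660 and 844 cells at day 10. In these cells 37 genes were higher and 282 lower, and the median log2 fold change of all genes was -0.27. Hsp90aa1, Hsph1, Gzma, Gzmb, Havcr2 and Myb were still called lower by edgeR, and of the stress genes 8 of 15 were lower and 0 higher. Of the receptor signalling and early activation genes 2 of 24 were higher. Tox was at 1.35 (edgeR adjusted p = 0.165), Cd69 at 0.75 (adjusted p = 0.0998), Zfp36l1 at 0.68 (adjusted p = 0.305) and Maf at 0.07 (adjusted p = 0.971), all without a call. The sign turned for Irf4, Fos (-0.70, edgeR adjusted p = 0.815), Ccl4 (-0.78, adjusted p = 0.743) and Rgs1 (-0.26, adjusted p = 0.593). The cut was a fixed number of UMIs whatever the depth of a cell. Ly6c2, among the macrophage and monocyte markers, also stands in the stem-like and memory list. Whether the other transcripts, the depth, the choice of markers or the small number of cells moved these values was not tested.

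Among all genes, those with the smallest p that were higher at day 17 included 5 genes of macrophages: Apoe (4.13), Selenop (2.87), Wfdc17 (2.95), Ccl8 (1.87) and Lyz2 (1.76), on the log2 scale. The day change of Apoe, Wfdc17, Ccl8 and Lyz2 was more positive in Rnls mut than in WT grafts. For Ccl8 it was so by 3.87 (edgeR adjusted p = 1.21e-13), so 1.87 averages unlike changes of the genotypes. Apoe had 0 to 16.1 CPM in the day 10 and 30.0 to 266 CPM in the day 17 grafts, and 2782 CPM in macrophages. The day change of Lyz2 in CD8 T cells minus that in CD4 T cells was 0.03 (edgeR adjusted p = 0.959), and that of Apoe 0.02 (adjusted p = 0.996). Wfdc17 and Ccl8 were at -0.018 (edgeR adjusted p = 0.988) and 0.00064 (adjusted p = 1), while Selenop differed by 1.27 (SE 0.29, adjusted p = 0.00478), so its rise was larger in the CD8 T cells. The 3 others were not macrophage genes: Dennd4a (1.02, SE 0.08), which regulates Rab10, Lncpint (1.11, SE 0.09), a long noncoding RNA, and Slc9a9 (1.28, SE 0.11), an endosomal sodium-proton exchanger. Dennd4a had 668 to 944 CPM at day 10 and 1271 to 2325 CPM at day 17, against 333 CPM in macrophages. Among the lower genes with the smallest p were Plek (-1.28, SE 0.11), Sub1 (-0.72, SE 0.07) and Cd9, a tetraspanin (-2.20, SE 0.22).

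Day changes were compared with those of other lymphocytes of the same grafts, with a term for each graft so that what a library shares drops out. Against CD4 T cells 171 of 7984 genes differed (2.14%), 38 with a more positive and 133 with a more negative change in CD8 T cells. Dst, a cytoskeletal linker (2.21, SE 0.42), Pkm, pyruvate kinase (0.60, SE 0.12), Actb (0.28), Ctsd (0.59) and Maf led the first group, and Jak2, the kinase of cytokine receptors (-0.84, SE 0.11), Mpp7 (-1.25, SE 0.14), Stat5b, which relays interleukin 2 and 7 (-0.88, SE 0.12), Vps37b (-0.59) and Gramd3 (-0.55) the other.

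Against NK cells 142 of 5632 genes differed (2.52%), 83 more positive and 59 more negative. Maf, Ier5l (2.90), Ifit1 (5.26, SE 0.93), Odc1, the first enzyme of polyamine synthesis (1.21, SE 0.18), and Ifih1, the RNA sensor MDA5 (2.93, SE 0.56), led the first group. A difference of changes does not say which of the cell types moved. Anxa2 (-0.76), Crip1 (-0.67), Sept11 (-1.16), Cd9 (-1.59) and Tmsb4x (-0.55) led the other group.

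Between genotypes few genes differed. Over both days 3 genes were higher and 1 lower in Rnls mut than in WT grafts by edgeR (0.0627% of those tested), and DESeq2 called 2 higher and 1 lower. At an unadjusted p under 0.05 there were 430 genes. The 4 genes were Ccl8 (0.66, SE 0.13), Gnb2, a G protein beta subunit (0.56, SE 0.11), Ubb, a polyubiquitin gene (-0.41, SE 0.08), each at an edgeR adjusted p of 0.0402, and AY036118. Ccl8 was called lower in Rnls mut grafts at day 10 and higher at day 17, so its 0.66 averages opposite signs. Gnb2 had 98.3 to 117 CPM in WT and 139 to 153 CPM in Rnls mut grafts at day 10, and 85.0 to 134 and 128 to 188 CPM at day 17. In 13 of the 16 fits without 1 graft 0 genes were called. No member of the 21 lists was called over both days. Gzmb differed by -0.36 (SE 0.29, edgeR adjusted p = 0.879), Ifng by -0.43 (SE 0.28, adjusted p = 0.845), Prf1 by -0.36 (SE 0.24, adjusted p = 0.845), Tox by -0.18 (SE 0.35, adjusted p = 0.983), Pdcd1 by -0.18 (SE 0.38, adjusted p = 0.983), Tcf7 by 0.17 (SE 0.21, adjusted p = 0.961) and Tgfb1 by 0.30 (SE 0.11, adjusted p = 0.588).

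Genotype differences over all genes tested were compared with those in the other lymphocytes of the same grafts too. By edgeR 0 genes differed in genotype effect between CD8 and CD4 T cells, with 369 of 7984 at an unadjusted p under 0.05, and 0 between CD8 T cells and NK cells, with 250 of 5632.

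Within days, genes of MHC class II presentation were called in opposite directions. At day 10, 1 gene was higher and 21 were lower in Rnls mut grafts (0.345%). Of the 21, 11 had a pooled level at least 10 times as high in macrophages, monocytes, dendritic cells, granulocytes or B cells. Cd74, the invariant chain of MHC class II, was at 137 ± 6.12 CPM in WT and 61.6 ± 8.65 CPM in Rnls mut grafts (mean ± SD, n = 4), a log2 fold change of -1.18 (SE 0.14, edgeR adjusted p = 3.49e-06). At day 17, 21 genes were higher and 2 lower (0.361%; 13 genes in all without Rnls mut day 17 graft 1), and 15 of the 21 were of that kind. Without the cells with markers of other types 1 gene was called at day 17. With the hashtag number as replicate block 60 genes were called at day 10 and 37 at day 17, a pairing that the labels do not give. H2-Ab1, an MHC class II gene, was at 60.6 ± 24.3 CPM in WT and 290 ± 44.2 CPM in Rnls mut grafts (n = 4), a log2 fold change of 2.23 (SE 0.22, edgeR adjusted p = 7.97e-09). The summed macrophage and monocyte markers given above moved the same way, lower in Rnls mut at day 10 and higher at day 17, and their part in these differences was not tested.

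Some called genes were not of that kind. Cmss1 (-0.95, SE 0.13) was lower in the Rnls mut group of day 10. At day 17 Ubb (-0.67, SE 0.13, edgeR adjusted p = 0.00297) and Gtf2b, a general transcription factor (-1.04, SE 0.22, adjusted p = 0.0154), were lower. Gtf2b lost its call in 4 of the 8 fits without 1 graft of day 17. Ubb had 774, 685, 1033 and 829 CPM in WT and 460, 562, 478 and 498 CPM in Rnls mut grafts of day 17, without overlap, and 667 to 822 against 627 to 738 CPM at day 10.

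The change from day 10 to day 17 differed between genotypes for 47 genes (0.737%), 41 with a more positive change in Rnls mut grafts, of which 20 had a level at least 10 times as high in macrophages, monocytes, dendritic cells, granulocytes or B cells. Cd3e was among the 41. It had 1093 to 1126 CPM in WT and 903 to 980 CPM in Rnls mut grafts at day 10, and 883 to 1250 and 1128 to 1351 CPM at day 17. Without Rnls mut day 17 graft 1, 27 genes were called in that comparison, and without the cells with markers of other types 1 was. With the hashtag number as replicate block 82 genes were called. The 6 with a more negative change, Dnajb9, Gm8797, Gnpda2, Gtf2b, Lag3 and Nr1h2, did not have such a level in those cells. Lag3, an inhibitory receptor that binds MHC class II, was at -1.94 (SE 0.49, edgeR adjusted p = 0.0458) and lost its call in 12 of the 16 fits without 1 graft. Lag3 (chromosome 6, 124904361 to 124911705) had 14.0 to 30.3 CPM in WT and 28.0 to 42.4 CPM in Rnls mut grafts at day 10. At day 17 it had 71.2, 30.0, 103 and 59.9 CPM in the WT and 27.4, 14.2, 31.6 and 0 CPM in the Rnls mut grafts, so 3 of 4 WT grafts were above all 4 Rnls mut grafts. Havcr2, Tox and Pdcd1 were not among the 47.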

How the data were processed

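The deposited table held raw UMI counts per gene and cell, which the authors made from 10x Genomics 3' libraries of sorted CD45+ cells; Cell Ranger and the mm10 build are named in the submitters' processing notes, without versions. Hashtag assignment, cell filters, clusters and cell types were taken from the authors' cell annotation, and raw hashtag counts were not used here. UMIs were summed over the CD8 T cells of each graft (library and hashtag), and the graft was the replicate. All 16 grafts had at least 10 CD8 T cells. Sums were tested with edgeR 4.0.16 (limma 3.58.1, R 4.3.3; filterByExpr, TMM, glmQLFit with robust dispersion, glmQLFTest) in 1 fit of 4 groups, with Benjamini-Hochberg adjustment over all genes tested and a threshold of 0.05. Log2 fold changes and their standard errors come from this fit, and CPM (UMIs of a gene per 1000000 UMIs of the graft's CD8 sum) were computed here. Differences of day change between CD8 and CD4 T cells or NK cells had a term for each graft. Shares were compared by exact permutation of grafts, stratified where both days or genotypes were pooled. Python 3.11.15, numpy 2.4.6, pandas 2.3.3 and scipy 1.17.1 were used, and the fits were tested on simulated data.

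The cell type, the 21 gene lists (404 genes, 403 of them in the table), the marker lists and the tests were chosen with earlier results of these data known, so no count over a list is independent support. Named by rule were the 8 genes with the smallest p in each direction between days (no ribosomal, mitochondrial, Gm or Rik genes), up to 4 called members per list, the fixed genes Cd3e, Cd8a, Cd8b1, Gzmb, Prf1, Ifng, Tcf7, Pdcd1, Tox, Tgfb1 and Klrg1, up to 5 genes per direction in the other comparisons and up to 6 of the 10 leading genes of each cluster. Other list members, Cd4 and the genes of the within-graft comparisons that lie outside this rule were named after their values were seen. Some genes are not reported here.

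The alternatives used DESeq2 1.42.0 and its own size factors, all genes with a UMI, grafts with at least 1 or 20 cells, only the groups compared, the hashtag number as replicate block, only cluster 3, cells without markers of other types, no cells among the 5% with the most UMIs, and each graft left out. Promoters came from RefSeq (GRCm38.p6) and gene positions from the GENCODE annotation of GRCm38. Total UMIs per graft, given with the results, limit the precision of low genes. PCR duplicates were collapsed by UMI in the deposited counts.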

Additional observations from a re-analysis of the deposited data

Results flagged for a closer look

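Of 48 sets of 4 grafts examined, 3 held a graft far from the other 3, where chance gives about 1 in 20 sets. Cd3e was 1250 CPM in WT day 17 graft 3, above the other WT grafts of day 17. Cd8a in the same graft was 186 CPM, the graft with 18 CD8 T cells and the highest Cd4. Tox was 72.0 CPM in WT day 10 graft 1, against 35.1 to 38.9 CPM in the other 3 grafts of that group.

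The change from day 10 to day 17 differed between Rnls mut and WT grafts for several named genes, by the interaction term of edgeR. The day change was more positive in Rnls mut grafts for Ccl8, a macrophage chemokine, by 3.87 (log2; edgeR adjusted p = 1.21e-13), for H2-Ab1 by 3.45 (adjusted p = 8.98e-12), for H2-Aa by 2.96 (adjusted p = 3.66e-10), for Cd74 by 2.32 (adjusted p = 6.89e-09) and for Gm42418 by 1.42 (adjusted p = 3.34e-08). H2-Ab1, H2-Aa and Cd74 are genes of MHC class II presentation. The summed macrophage and monocyte markers ran from 246 to 286 CPM (WT) and 115 to 141 CPM (Rnls mut) at day 10 and from 265 to 524 CPM and 1038 to 1449 CPM at day 17. Their part in these differences was not tested.

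The day change was more negative in Rnls mut grafts for Lag3 (-1.94, edgeR adjusted p = 0.0458), Gnpda2 (-1.92, adjusted p = 0.0314), Dnajb9 (-1.50, adjusted p = 0.0184), Gtf2b (-1.20, adjusted p = 0.0153) and Gm8797 (-0.95, adjusted p = 0.0152). Of the 16 fits that left out 1 graft, the call was lost in 12 for Lag3, in 8 for Gnpda2, in 3 for Dnajb9, in 2 for Gm8797 and in 1 for Gtf2b.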

How the results depend on the processing

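The alternatives with cluster 9 alone, with Cd8 UMI and no Cd4 UMI, and with cells thinned to 1000 UMIs were chosen after seeing the data. The number of genes called between days over both genotypes (1390) was 791 in cluster 3 alone, 319 without cells with markers of other types, 532 in cluster 9 alone, 562 in thinned cells and 1082 to 1446 without 1 graft, and without the filter on low counts 505 were higher and 1149 lower. Within WT (764) these alternatives gave 384, 182, 205, 219 and 505 to 747, with 460 in cells with a Cd8 UMI and no Cd4 UMI. Within Rnls mut (657) they gave 315, 104, 265, 355 and 396 to 588. Between genotypes over both days (4) the counts were 9 with no filter, 0 in cluster 3, 1 without cells with markers of other types, 0 without the 5% of cells with the most UMIs, 1 in cluster 9, 1 in Cd8 UMI cells, 0 in thinned cells and 0 to 5 without 1 graft. At day 10 (22) they were 68 with no filter, 46 with at least 20 cells per graft, 76 with only the groups compared, 13 in cluster 3, 34 in Cd8 UMI cells and 16 to 31 without 1 graft. At day 17 (23) they were 41 with no filter, 1 without cells with markers of other types, 11 in cluster 9, 13 in Cd8 UMI cells, 15 in thinned cells and 13 to 29 without 1 graft. For the difference of day change (47) they were 73, 1, 15, 28, 25 and 27 to 49 in that order, and 29 in cluster 3. The share of CD45+ cells changed by -13.4 to -11.5 points between days and by -1.41 to 0.467 points between genotypes without 1 graft. The cause of these differences was not tested.

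Without cells with markers of other types the sign turned between days for Ccl4 (-0.78), Irf4 (-2.23), Rgs1 (-0.26), Cd7 (-0.27), Fos (-0.70) and Igtp (0.043), and within Rnls mut for H2-Aa (-0.14). Klre1 turned to 0.025 in Cd8 UMI cells and Ifitm2, within Rnls mut, to 0.076 in cluster 9.

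Same-numbered hashtags of WT and Rnls mut deviated together with correlations of 0.389, 0.118, 0.0428 and -0.0137 at day 10 and 0.0151, 0.0568, 0.122 and 0.0282 at day 17. Grafts of unlike number gave -0.201 to 0.193 at day 10 and -0.0604 to 0.0695 at day 17. Most same-number values lay within those ranges, and the labels do not tie numbers to mice. The main fit took no pairs, and these values do not settle whether equal numbers mark the same mouse. With the hashtag number as replicate block 60 genes were called between genotypes at day 10, 37 at day 17, 5 over both days and 82 for the difference of day change. At 18 to 443 cells per graft, low genes such as most of the cell cycle list could not be tested.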

Other observations

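Segments of the T cell receptor beta chain differed between grafts, as counted by UMIs assigned to Trbv genes. Trbv29 led in graft 1 of both day 10 groups, with 26.3% of 190 Trbv UMIs in the WT and 24.5% of 139 in the Rnls mut graft, and Trbv19 was second in both, with 19.5% and 17.3%. These were the grafts with the highest share of CD8 T cells among T cells and the highest Tox of day 10. Trbv29 was also among the first segments in 2 grafts of day 17. It was level with Trbv19 in Rnls mut graft 2 (16.7% each of 36 Trbv UMIs) and with Trbv20 in WT graft 4 (23.5% each of 17). Rnls mut day 17 graft 3 had Trbv16 in 47.8% of 23 Trbv UMIs. Day 17 grafts held 6 to 37 Trbv UMIs each, so their shares rest on few molecules.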
